A study of Homo sapiens with 2 samples.

Results

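The genes described here are the AP-1 subunits and ATF3, 8 genes of the 19775 that the arrays name: JUN, JUNB and JUND of the JUN family, FOS, FOSB, FOSL1 and FOSL2 of the FOS family, and ATF3. They were chosen by symbol, as every probe set that the platform annotation pairs with 1 gene of that name, which gave 20 probe sets of 54613. RNA came from KYSE170-luc, a human esophageal squamous carcinoma line whose suffix stands for luciferase, on 1 array of cells transfected with a SOX17 expression plasmid and 1 array of cells given the empty vector (EV), both 12 h after transfection. SOX17 is a transcription factor of endoderm and endothelium. The comparison asks which transcripts differ after it is introduced. Neither group has a replicate, so every difference below is between these 2 arrays and no p-value was computed. The RNA of a whole transfected culture was measured, so a lower level per cell and fewer cells with that RNA cannot be told apart, and the share of cells that took up plasmid is not given in the sources used here.

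AP-1 is a dimer of basic leucine zipper (bZIP) proteins. JUN proteins pair with one another or with FOS proteins, whereas FOS proteins need a partner, and the dimers bind the palindromic AP-1 site in the promoters and enhancers of genes for growth, matrix breakdown and inflammation. JUN, JUNB, FOS, FOSB and ATF3 are immediate early genes, transcribed within minutes of growth factors or stress, while JUND and FOSL1 are known for steadier levels in epithelial and carcinoma cells. ATF3 is a related bZIP factor that pairs with JUN proteins and acts mostly as a repressor.

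Promoters are shown for 4 members, picked by their letters and by their ratios. JUN and the upstream window of ATF3 carry the same site, and both genes were lower on the SOX17 array. JUNB, JUND, FOS and FOSL2, whose windows lack that site, were lower as well. A link between site and ratio was not tested. FOSL2 carries the AP-1 site beside letters of the SOX core, and FOSB was the member with the highest ratio. Each promoter runs 5′ to 3′ on the gene's strand, from 250 bases before the RefSeq start to 30 bases after it, in GRCh38.p14. They lie at chr1:58784018-58784297 (minus strand), chr1:212565157-212565436 (plus strand), chr2:28392608-28392887 (plus strand) and chr19:45467746-45468025 (plus strand). Capitals mark the AP-1 site TGACTCA, the JUN/ATF variant TGACATCA, the CRE core TGACG, the SOX core ACAAT and the TATA box TATAAA, on either strand.
JUN: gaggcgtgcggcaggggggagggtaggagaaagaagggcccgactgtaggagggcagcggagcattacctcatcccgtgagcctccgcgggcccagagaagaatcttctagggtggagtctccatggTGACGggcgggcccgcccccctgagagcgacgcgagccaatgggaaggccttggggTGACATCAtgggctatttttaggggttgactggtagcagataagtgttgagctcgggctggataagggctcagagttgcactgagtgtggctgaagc
ATF3: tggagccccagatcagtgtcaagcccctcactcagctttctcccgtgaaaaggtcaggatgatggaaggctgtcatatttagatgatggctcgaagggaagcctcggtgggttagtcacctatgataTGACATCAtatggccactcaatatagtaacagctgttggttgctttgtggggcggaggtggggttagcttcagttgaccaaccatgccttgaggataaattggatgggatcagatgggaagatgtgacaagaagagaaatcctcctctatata
FOSL2: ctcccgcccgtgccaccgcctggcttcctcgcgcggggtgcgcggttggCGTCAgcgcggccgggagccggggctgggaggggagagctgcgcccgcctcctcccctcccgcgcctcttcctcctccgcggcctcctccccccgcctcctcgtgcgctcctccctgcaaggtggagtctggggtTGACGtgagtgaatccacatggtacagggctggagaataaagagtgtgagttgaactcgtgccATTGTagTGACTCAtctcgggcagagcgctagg
FOSB: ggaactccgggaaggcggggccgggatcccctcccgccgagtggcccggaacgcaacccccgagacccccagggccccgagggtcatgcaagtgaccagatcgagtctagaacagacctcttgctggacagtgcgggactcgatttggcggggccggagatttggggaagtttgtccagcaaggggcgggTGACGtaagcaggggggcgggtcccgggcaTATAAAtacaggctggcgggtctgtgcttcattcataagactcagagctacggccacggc

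In JUN the variant TGACATCA spans positions -67 to -60 from the start, and in ATF3 positions -123 to -116. It stands in 2.55% of the 35116 promoter windows of the same length. FOSL2 has the AP-1 site at positions 5 to 11, which 4.73% of windows hold, and the SOX core on the opposite strand across the start itself, from -3 to 2, which 26.4% of windows hold. FOSB has the CRE core from -60 to -56, in 23.5% of windows, upstream of a TATA box, which 11.2% of windows hold. The full CRE, TGACGTCA, in 1.85% of windows, was found in JUND alone among the members, from -200 to -193, and there it holds the core on both strands. JUND has a further CRE core on the opposite strand, from -86 to -82. FOS and JUNB each have a CRE core and a TATA box, JUN has a CRE core as well, and FOSL2 has 2, from -201 to -197 and from -66 to -62. The RefSeq table used holds a window for 7 of the 8 members, with 2 windows for ATF3, of which the upstream one is shown. The variant TGACATCA stands in that upstream window and not in the other. The other window holds the letters TATAAA from -230 to -225, far from its start. In FOS, JUNB and FOSB those letters begin at -33, -31 and -30. Whether the other ATF3 window acts as a promoter was not tested. FOSL1 is the member without a window. These matches describe letters only.

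All 8 members were measured, meaning that the brightest probe set of each lay at or above the floor, an intensity of 95, on both arrays. Of the 20 probe sets 15 were measured, 13 of them with a lower intensity on the SOX17 array (48.9% of all measured probe sets were lower) and 2 with a higher one. By size, 4 of the 15 were at least 1.5-fold lower, against 4.61% of measured probe sets, and 0 at least 1.5-fold higher, against 3.96%. Counted by gene, on the brightest probe set of each, 6 of 8 were lower on the SOX17 array, against 45.4% of the 10034 measured genes, and 2 were higher, against 54.6%. At least 1.5-fold lower was 1 of 8, against 3.19% of measured genes, and 0 of 8 was at least 1.5-fold higher, against 3.78%. None of the 8 passed 2-fold, which 0.329% of measured genes did downward and 0.419% upward. At a smaller threshold, a log2 ratio of 0.32 in size, 5 members were lower, against 13% of measured genes, and 1 was higher, against 15%. The members' median log2 ratio, SOX17 over EV, was -0.39, which is 1.31-fold lower, and that of all measured genes was 0.033. When the ratio was averaged over a gene's probe sets, 3 of 8 members were at least 1.5-fold lower, with JUN and ATF3 added, against 2.42% of measured genes averaged the same way. With the _x_at and _s_at probe sets left out, 3 of 7 were, again JUNB, JUN and ATF3, against 3.91% of genes. In the FOS family 2 of 4 genes were below 0, with a median log2 ratio of -0.099, and the JUN family had one of -0.53.

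**Figure D1:**
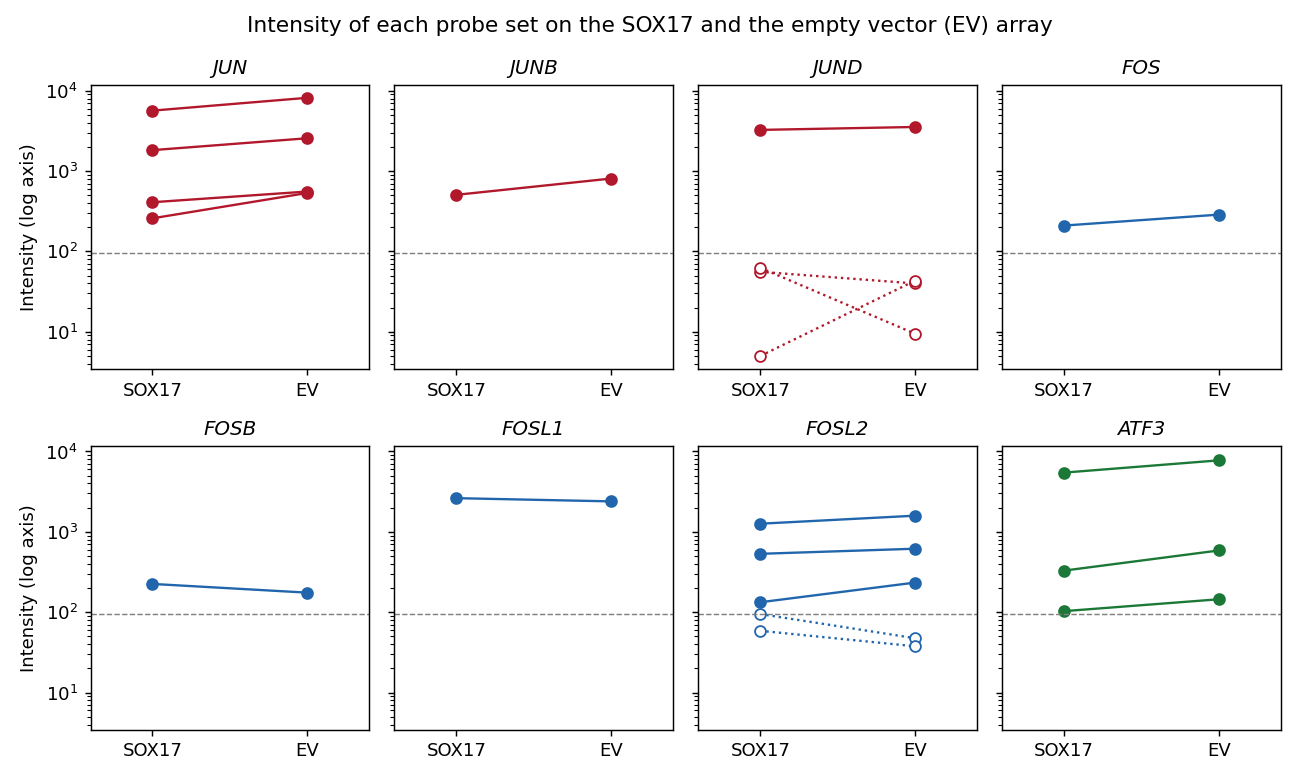
Intensity (log axis) of each of the 20 probe sets on the SOX17 array (left in each panel) and the empty vector array (right), joined by a line, with the floor of 95 dashed. Filled points are measured probe sets and open points on dotted lines lie below the floor on at least 1 array; the lines of JUN, JUNB, FOS and ATF3 all lie lower at SOX17, and those of FOSB and FOSL1 lie higher.

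JUN, the founding transactivating subunit of AP-1, was lower on the SOX17 array on all 4 of its probe sets. The brightest read 5651.6 on the SOX17 array and 8154 on the EV array, a log2 ratio of -0.53 (1.44-fold lower). The next read 1821.9 on the SOX17 array and 2559.6 on the EV array, a log2 ratio of -0.49. The third read 409.5 on the SOX17 array and 556.1 on the EV array, a log2 ratio of -0.44. The dimmest, which read 258.2 on the SOX17 array and 533.4 on the EV array, had the largest difference, a log2 ratio of -1.05 (2.07-fold lower). The mean log2 ratio over the probe sets was -0.63 ± 0.28 (SD, n = 4 probe sets, which share both RNA samples and are no replicates of the condition). The 3 brighter ones lay close together, and the dimmest stood apart from them.

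JUNB, a subunit that activates less strongly than JUN on its own and often restrains growth, had the lowest ratio when each member was taken on its brightest probe set. Dimmer probe sets of JUN, ATF3 and FOSL2 lay lower. JUNB read 506.3 on the SOX17 array and 806.9 on the EV array (log2 ratio -0.67, 1.59-fold lower), on its only probe set. Of all measured genes 1.97% had a ratio as low.

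JUND, the subunit known for constant expression, differed least within the JUN family. Its measured probe set read 3253.9 on the SOX17 array and 3538.7 on the EV array, a log2 ratio of -0.12 (1.09-fold lower), and 29.9% of measured genes had a ratio as low. The other 3 probe sets of JUND lay below the floor on both arrays, with intensities of 5 to 62.6 on the SOX17 array and 9.5 to 43.1 on the EV array, and they did not share a direction. The log2 ratio of JUN was 0.41 below that of JUND (difference -0.41, SD of the difference 0.25), and that of JUNB 0.55 below it (-0.55, SD 0.31). Both differences are under 2 SD of the error between probe sets.

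FOS, which forms the classic AP-1 dimer with JUN and is switched on and off quickly after a stimulus, had 1 probe set. It read 210 on the SOX17 array and 287.1 on the EV array, a log2 ratio of -0.45 (1.37-fold lower). These were low intensities, in the lowest tertile of level, where 10.3% of genes had a ratio as low and 5.95% were at least 1.5-fold lower.

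FOSB, a close relative of FOS with the same early kinetics, went the other way on its 1 probe set. It read 224.8 on the SOX17 array and 175.2 on the EV array, a log2 ratio of 0.36 (1.28-fold higher), and 12.5% of measured genes had a ratio as high. Its intensities too were in the lowest tertile of level, where 22.6% of genes had a ratio as high. FOS and FOSB differed by 0.81 in log2 ratio (FOS minus FOSB -0.81, SD of the difference 0.50).

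FOSL1 encodes FRA-1, which lacks the strong activation domain of FOS and is the FOS protein best known from invasive carcinomas. It read 2623.7 on the SOX17 array and 2393.8 on the EV array, a log2 ratio of 0.13 (1.10-fold higher). That is within 1 SD of the error at its level (0.17), and 35.6% of measured genes had a ratio as high.

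FOSL2 encodes FRA-2, the relative of FRA-1 expressed in many epithelia. Its brightest probe set read 1261.8 on the SOX17 array and 1587.4 on the EV array, a log2 ratio of -0.33 (1.26-fold lower). The other 2 measured ones read 532.6 and 133 on the SOX17 array, against 616.3 and 233.4 on the EV array, with log2 ratios of -0.21 and -0.81. The mean over the 3 was -0.45 ± 0.32 (SD, n = 3 probe sets). A pair of dimmer FOSL2 probe sets ran in the opposite direction, at 94.9 and 58.7 on the SOX17 array against 47.5 and 37.7 on the EV array. All 4 of these intensities are under the floor, and the 94.9 is just under it.

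ATF3, which many stresses induce, was lower on the SOX17 array on all 3 probe sets. The brightest read 5457.8 on the SOX17 array and 7750.2 on the EV array, a log2 ratio of -0.51 (1.42-fold lower). The others read 329.4 and 103.1 on the SOX17 array, against 586 and 144.8 on the EV array, with log2 ratios of -0.83 and -0.49. The mean over probe sets was -0.61 ± 0.19 (SD, n = 3 probe sets). The log2 ratios of ATF3 and JUN differed by 0.023 (SD of the difference 0.25).

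The probe sets of single genes gave the error that these arrays hold. Over 4574 genes, the SD of 1 log2 ratio, from the 2 brightest measured probe sets of a gene, was 0.35 among genes in the tertile of lowest intensity, 0.26 in the middle tertile and 0.17 among the brightest. Against the SD at its own level, the ratio of JUN stood 3.03 SD from 0, that of ATF3 2.90 and that of JUNB 2.63, each below it. The share of all measured genes that stood as many SD from 0 was not counted. Among genes of the same tertile of level, 2.003% had a ratio as low as JUN, 2.36% as low as ATF3 and 1.41% as low as JUNB. The ratios of FOS, FOSL2 and FOSB lay between 1.02 and 1.29 SD from 0, and those of JUND and FOSL1 within 1 SD. This error leaves out the spread between cultures, so it does not say how far 2 EV cultures would differ.

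**Figure D2:**
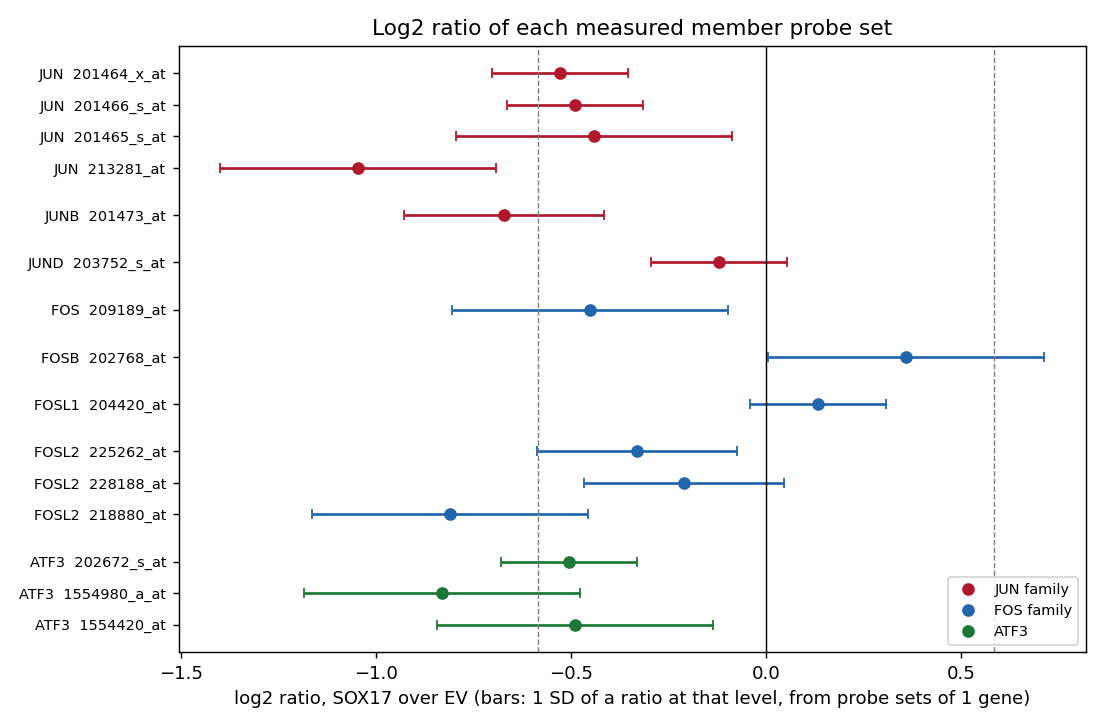
Log2 ratio, SOX17 over EV, of the 15 measured probe sets (1 row each, grouped by gene), with bars of 1 SD of a ratio at that level of intensity and dashed lines at 1.5-fold. The bars of all JUN, JUNB, FOS and ATF3 probe sets stay below 0, that of FOSB stays above 0, and those of JUND, FOSL1 and 1 of the 3 FOSL2 probe sets cross 0.

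JUN, ATF3 and FOSL2, the 3 members with at least 3 measured probe sets, were below 0 on all 10 of them, against 19.8% of the 1820 genes with at least 3 measured probe sets. JUN and ATF3 also had a log2 ratio of -0.32 or less on every one, which 1.65% of those genes (30 of 1820) had, a limit set on them after the values had been seen. Both are among the brighter genes. In the highest tertile of level 2.003% of genes had a ratio as low as that of JUN and 2.36% one as low as that of ATF3, and 1.17% were at least 1.5-fold lower. In the middle tertile, which holds JUNB, 2.45% of genes were at least 1.5-fold lower.

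**Figure D3:**
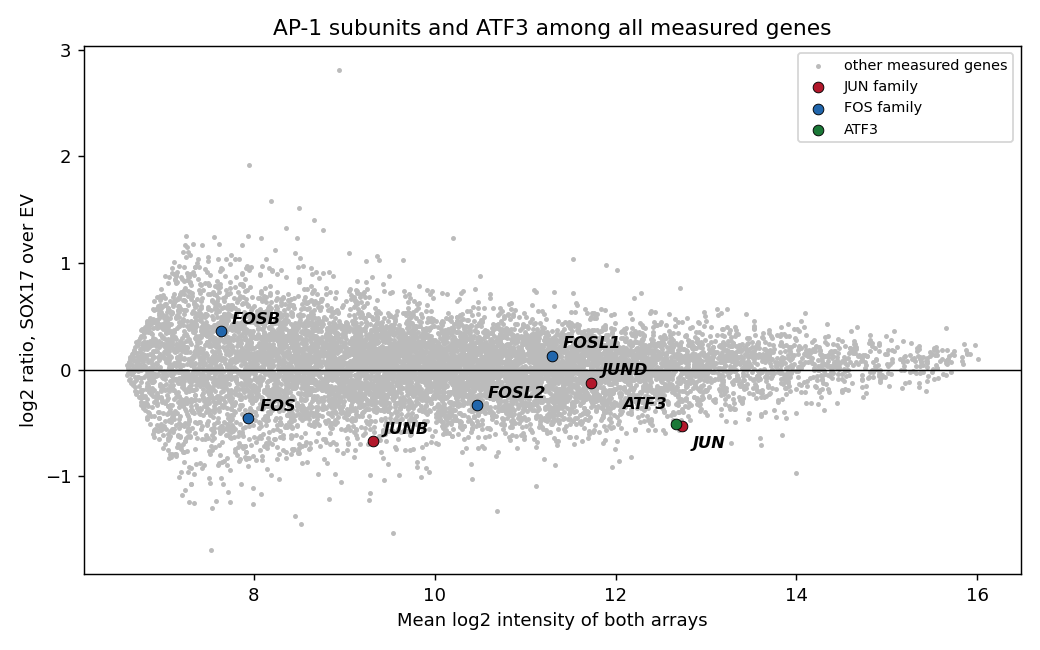
Log2 ratio, SOX17 over EV, against the mean log2 intensity of both arrays for the 10034 measured genes (grey), with the JUN family in red, the FOS family in blue and ATF3 in green. JUN and ATF3 lie next to each other at the lower edge of the bright genes, JUNB at the lower edge of the middle ones, and FOS and FOSB inside the wide scatter of dim genes.

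The other bZIP factors that bind with or beside AP-1 did not share the members' median. Of 11 measured, 5 were below 0 and 6 above, against 45.4% and 54.6% of all measured genes. The median log2 ratio was 0.074. No gene of this list passed 1.5-fold, which 3.19% of measured genes did downward and 3.78% upward. MAFF, a small MAF protein that lacks an activation domain, read 4302.6 on the SOX17 array and 6362.9 on the EV array (log2 ratio -0.56) and was lower on both probe sets. BATF, which pairs with JUN proteins in lymphocytes, had a log2 ratio of 0.54, at 159.3 on the SOX17 array and 109.3 on the EV array. The cAMP-responsive factor CREB1 had a log2 ratio of -0.40 on its brightest probe set, with 7 measured probe sets from -0.48 to 0.13. Its relative CREB5 had a log2 ratio of -0.31.

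Kinases and SRF partners upstream of the FOS and JUN genes had a median log2 ratio of -0.064. Below 0 were 10 of 16, against 45.4% of all measured genes. ELK3, a ternary complex factor that binds DNA with SRF, read 1773.4 on the SOX17 array and 3176.5 on the EV array. Its log2 ratio was -0.84 (1.79-fold lower), and it was the 1 gene at least 1.5-fold lower, against 3.19% of measured genes. MAP2K2, a kinase that activates ERK, was the 1 gene at least 1.5-fold higher, against 3.78% of measured genes. Its log2 ratio was 0.60 on its brightest probe set and 0.10 on its other. MAPK7 had a log2 ratio of 0.54 and MAPK3 one of -0.29. SRF itself read 182.5 on the SOX17 array and 163.6 on the EV array.

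Genes that act in the decay of AP-1 mRNA and protein had a median log2 ratio of -0.092. Below 0 were 7 of 11, against 45.4% of all measured genes. FBXW7, the ubiquitin ligase subunit that marks JUN for breakdown, read 652.9 on the SOX17 array and 1099.5 on the EV array (log2 ratio -0.75), but its 3 measured probe sets ran from -0.75 to 0.029. ZFP36L1, an mRNA decay factor, had a log2 ratio of -0.43. COP1, a ubiquitin ligase for JUN, had one of 0.31, and COPS5, which binds JUN, one of 0.21.

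Genes known as AP-1 targets in epithelia went both ways. Of 26 measured 14 were below 0 and 12 above, against 45.4% and 54.6% of all measured genes. The median log2 ratio was -0.031. By size, 5 were higher by 1.5-fold or more, against 3.78% of measured genes, and 2 lower, against 3.19%. PTGS2, the inducible prostaglandin synthase, read 11692.3 on the SOX17 array and 22876.3 on the EV array (log2 ratio -0.97). The urokinase gene PLAU, at 184.3 on the SOX17 array and 314.9 on the EV array, had a log2 ratio of -0.77. The matrix protease gene MMP10, at 348.1 on the SOX17 array and 178.8 on the EV array, and the heme oxygenase gene HMOX1, at 227.9 on the SOX17 array and 117.3 on the EV array, both had a log2 ratio of 0.96. The other 3 at least 1.5-fold higher were SPRR3, SPRR1A and TGFB1. All 5 of these higher genes lay in the lowest tertile of level, as did PLAU, while PTGS2 lay in the highest.

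Among stress genes that act with ATF3, 10 of 12 were below 0, against 45.4% of measured genes, with a median log2 ratio of -0.25. Lower by 1.5-fold or more were 3, against 3.19% of measured genes. The mTORC1 inhibitor gene DDIT4 had a log2 ratio of -0.89, CHAC1 of the glutathione breakdown pathway one of -0.88, the phosphatase subunit gene PPP1R15A one of -0.75 and GADD45A one of -0.29. ATF4, which activates ATF3, read 25853.2 on the SOX17 array and 23249.7 on the EV array (log2 ratio 0.15), and DDIT3, which encodes CHOP, had a log2 ratio of 0.074. Both of these stand among the bZIP factors above as well. Other immediate early genes had a median log2 ratio of -0.31, with 13 of 14 below 0, against the same 45.4%. At least 1.5-fold lower were 2, against 3.19%: the phosphatase gene DUSP2 (-0.78) and the matricellular gene CCN1 (-0.71). CHAC1, PPP1R15A and DUSP2 lay in the lowest tertile of level, where 5.95% of genes were at least 1.5-fold lower. EGR1 had a log2 ratio of -0.47 on its brightest probe set, but its 3 measured probe sets ran from -0.47 to 0.45. DUSP1 had a log2 ratio of -0.42.

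**Figure D4:**
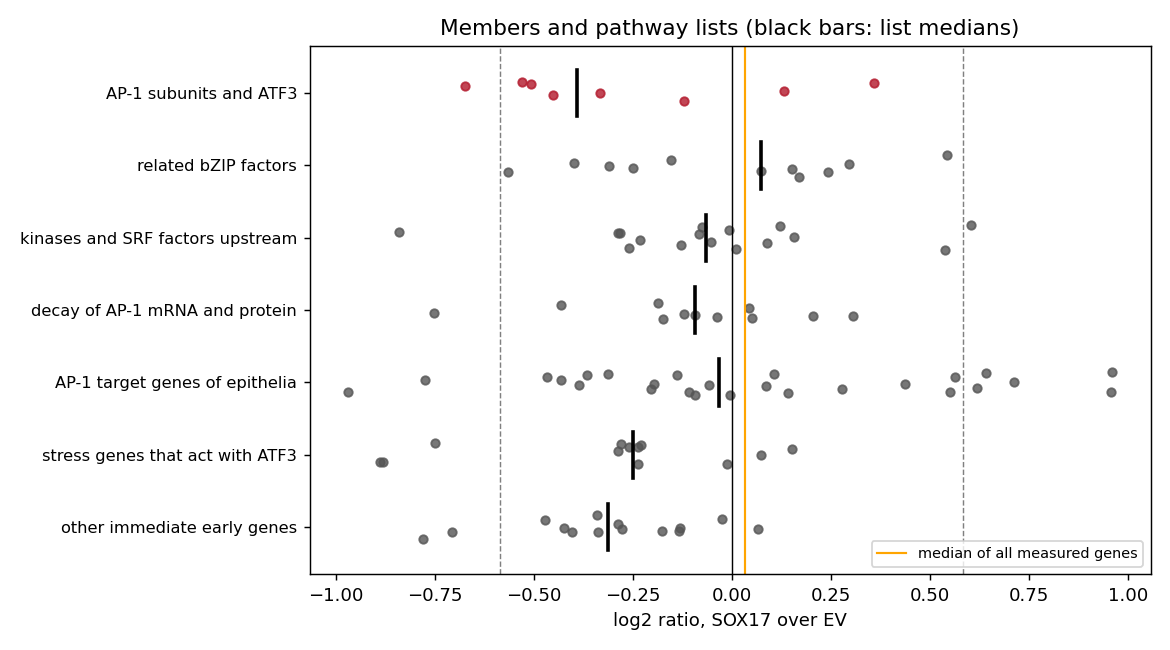
Log2 ratio, SOX17 over EV, of each measured gene (points, spread vertically for sight) among the AP-1 subunits and ATF3 (red) and in 6 lists of related genes (grey), with list medians as black bars and dashed lines at 1.5-fold. The medians of the members, of the stress genes and of the other immediate early genes lie at -0.39, -0.25 and -0.31, and those of the other lists between -0.092 and 0.074.

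Facts of the arrays bear on all of these values. SOX17 transcript lay below the floor on both arrays, at 83.8 and 6.5 on the SOX17 array against 4.5 and 19.1 on the EV array on its 2 probe sets, so these values do not check the labels. Control RNAs with poly-A tails, added before labelling, were higher on all their 24 probe sets on the SOX17 array, with a median log2 ratio of 0.57 and a range of 0.23 to 1.02. Their part in the results was not tested. For ACTB the signal at the 3′ end over that at the 5′ end was 10.4 on the SOX17 array and 11.6 on the EV array, and for GAPDH it was 1.18 on the SOX17 array and 1.16 on the EV array. Of 11 epithelial markers listed, 3 had no probe set paired with 1 gene of that name: KRT6A, KRT17 and TP63. The other 8 were all measured, among them KRT5 and KRT14 of squamous cells and the general CDH1 and EPCAM. Over all 18 of their probe sets, intensities summed to 211284 on the SOX17 array and 202995 on the EV array. The brightest genes in these sums were SFN and PERP. KRT5 was dim, at 273 on the SOX17 array and 247.5 on the EV array, in the lowest tertile of level. Of 10 leukocyte markers 0 were measured, with sums of 610.1 on the SOX17 array and 491.7 on the EV array. Of 11 fibroblast and endothelial markers 1, COL1A1, was measured, with sums of 2130 on the SOX17 array and 1852.7 on the EV array.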

How the data were processed

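Per the submitters' processing notes, GCOS gave the deposited values, which are linear intensities, 1 for each probe set on each array; its algorithm, scaling and detection calls are not given in the sources used here. By the values, each array has a mean of 500.1 without its lowest and highest 2%, so the deposited intensities had been scaled to a common mean, and they were used as deposited. An equal change of all transcripts is thus not visible. Of 54613 probe sets without controls, GEO's platform annotation gives 41091 a single gene, 1801 several and 11721 none; only the first kind was named.

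The floor is the 60th percentile over both arrays together. A gene's log2 ratio, SOX17 over EV, is that of its brightest probe set. With 1 array per group no test was possible and the number of arrays limits precision. The error is the SD of the difference between the log2 ratios of a gene's 2 brightest measured probe sets, divided by the square root of 2. Named genes are all members and up to 4 genes per list with the largest absolute ratio, plus those that a count needs. SRF, ATF4, DDIT3 and the pairs of members set against each other were chosen after their values were seen. The members and lists were chosen with earlier results of these data known. Promoter windows are from RefSeq (GRCh38.p14). Alternatives were centring, quantile normalization, loess (span 0.4), floors at the 50th or 75th percentile or none, means over probe sets, no probe sets ending in _x_at or _s_at, and thresholds of 2-fold and of a log2 ratio of 0.32. The calculation of the ratios was checked on simulated intensities with known fold changes, which says nothing of the error between cultures. Computations ran under scipy 1.17.1, statsmodels 0.14.6, pandas 2.3.3 and numpy 2.4.6 in Python 3.11.15.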

Additional observations from a re-analysis of the deposited data

How the results depend on the processing

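The sign of every member's log2 ratio was the same in all 61 values computed under 8 other settings of scaling, floor and probe set choice. Many of these values could not differ, because a floor leaves the ratio of the brightest probe set as it is. Means likewise cannot move a member with 1 measured probe set, and leaving out _x_at and _s_at probe sets moved only JUN and ATF3. The members' median ran from -0.45 to -0.37. With a floor at the 75th percentile FOS and FOSB dropped out, and 5 of 6 members were below 0. With _x_at and _s_at probe sets left out JUND dropped out, 5 of 7 were below 0, and JUN lay at -1.05 and ATF3 at -0.83, each on a dimmer probe set. The count of members at least 1.5-fold lower was 3 of 8 with means over probe sets (2.42% of measured genes) and 3 of 7 without those probe sets (3.91%), against 1 of 8 (3.19%). At 2-fold it was 0 and at a log2 ratio of 0.32 it was 5, with 1 higher. The median of the epithelial AP-1 targets was -0.10 with the floor at the 75th percentile and 0.040 without _x_at and _s_at probe sets, and that of the related bZIP factors was -0.070 with means over probe sets; the cause was not tested. The median of the other immediate early genes was -0.47 without _x_at and _s_at probe sets. No paired analysis was possible because each group has 1 array, and for the same reason no array could be left out. Intensities near the floor limit FOS, FOSB and the dimmest probe sets of FOSL2 and ATF3.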

Other observations

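The antisense RNA FOSL2-AS1 read 14.5 on the SOX17 array and 18.5 on the EV array, under the floor on both. Among genes outside the members with at least 2 measured probe sets, the 5 whose mean log2 ratio lay closest to the members' median of -0.39 were GRAMD4, ZNF75A, UBN1, YOD1 and PALS1. The probe sets of GRAMD4 ran from -0.40 to -0.38, those of PALS1 from -0.41 to -0.38 and those of UBN1 from -0.42 to -0.36, while those of ZNF75A ran from -0.64 to -0.14 and those of YOD1 from -0.74 to -0.044. Likeness here is a difference of 1 ratio over 2 arrays, and 242 of the 4571 genes searched lay within 0.05 of that median.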
